A study of Mus musculus with 6 samples.

Results

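The Ly6 family surface proteins followed here are Ly6a, Ly6c1, Ly6c2, Ly6d, Ly6e, Ly6g, Ly6h, Ly6i and Ly6k, 9 genes of a single cluster on mouse chromosome 15. They were selected on the tumor and normal liver values of these same arrays, as Ly6d was among the largest rises, so the differences between tumor and normal liver below are given as a description of the members, with no test. Of the 9 genes, 8 had a probe on the array, by 10 of its 55681 gene probes, and Ly6c2 had none. A filter that kept a probe where the 3 arrays of a group, or of both, all read it well above background left 5 members (Ly6a, Ly6c1, Ly6d, Ly6e and Ly6g, by 6 probes) among 18567 genes. Ly6h, Ly6i and Ly6k did not pass it.

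Total RNA of liver from male C3H/HeN mice, a strain whose males develop liver tumors spontaneously with age, was read in 2 groups, normal liver (n = 3) and liver tumor (n = 3), on Agilent SurePrint G3 Mouse GE arrays with 1 dye (Cy3). All mice were 74 to 75 weeks old, came from the F2 control animals of a project on arsenic exposure during gestation, and had a standard diet and tap water. The tumors carried a Ha-ras mutation by the published methods, and the labels do not say whether a normal liver and a tumor came from the same mouse. Each sample is a piece of bulk tissue, in which fewer cells of a type and less RNA per cell cannot be told apart.

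Ly6 proteins are small proteins of the Ly6/uPAR superfamily, built on a compact fold held by disulfide bonds between cysteines, and most of them are attached to the outer face of the plasma membrane by a glycosylphosphatidylinositol (GPI) anchor. In the mouse several members serve as markers of cell types: Ly6a is Sca-1, used to sort hematopoietic stem cells and also found on endothelium, Ly6c marks monocytes and endothelium, and Ly6g is the neutrophil antigen seen by the Gr-1 antibody. Ly6d is known from keratinocytes, urothelium and early B cells, Ly6k from testis and tumors, Ly6e from many tissues and the interferon response, Ly6i from macrophages, and Ly6h from brain. The family has grown by gene duplication, so that neighbouring genes are close in sequence and what a probe can tell apart matters.

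The probes behind the main results are shown first, since each member except Ly6c1 and Ly6h was read by a single 60-base sequence and a single spot. Positions are those in the array files, on mouse build mm9, and what part of a transcript the probes lie in was not analysed here. For Ly6d (chr15:74592551-74592610, minus strand), Ly6a (chr15:74825553-74825612, minus strand), Ly6e (chr15:74789592-74789651, plus strand) and the brighter Ly6c1 probe (chr15:74875495-74875554, minus strand) the first 30 bases are printed, 5′ to 3′.
Ly6d: caggacaggaagatgtggcttgtgtcccag
Ly6a: tatgagttatagaagctccaaggtgggagt
Ly6e: tatcattgtacccaccttgtactctgttca
Ly6c1: tattatagtatcaccatccacacataagta

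The probes of Ly6k (chr15:74627529-74627588, minus strand) and Ly6g (chr15:74989023-74989082, plus strand) and a probe of Gm10238 (chr15:75066100-75066159, minus strand), a predicted pseudogene near Ly6g in the cluster, hold the stretch that ends the Ly6 domain. Capitals mark the bases from the codons for Cys-Cys to those for Cys-Asn. The dimmer Ly6c1 probe (chr15:74877785-74877844, minus strand) is shown because its groups overlapped, unlike those of the brighter one.
Ly6k: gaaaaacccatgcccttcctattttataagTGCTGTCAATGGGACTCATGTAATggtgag
Ly6g: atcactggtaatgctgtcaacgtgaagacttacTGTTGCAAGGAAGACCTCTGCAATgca
Gm10238: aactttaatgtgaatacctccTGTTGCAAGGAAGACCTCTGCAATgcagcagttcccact
Ly6c1, dimmer probe: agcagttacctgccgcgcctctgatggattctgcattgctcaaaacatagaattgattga

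The marked codon stretch, read in the direction of the probe only, was found in 8 of the 55681 probe sequences of the array (0.0144%), among them those of the relatives Psca, Spaca4 and Ly6g5c. The Ly6g and Gm10238 probes share an unbroken run of 28 bases around it. The longest runs that the other 9 member probes shared with a probe of any other gene were 12 to 15 bases. Probes were compared with probes only, which does not show whether a probe binds the transcript of another gene. The match of the probes to the transcripts of other genes, with or without a probe of their own and that of Ly6c2 among them, was not tested.

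Values are given as expression values, the processed signal of a spot divided by the 75th percentile of the processed signals on its array, and differences are on the log2 scale, tumor minus normal liver. Spots not well above background had no level of their own: the lowest value well above background was 0.101 to 0.148 on the 6 arrays. The 75th percentile itself was 124 to 183 signal units, and no gene spot was saturated. The normal livers were all on 1 slide, with a median local background of 42 to 45, and the tumors on another, with 22 to 23, so slide and group cannot be told apart. Over all genes tested the median difference was -0.13, and limma, a linear model with a shared estimate of the spread, called 34.2% of them at an adjusted p under 0.05, 13.1% higher and 21.0% lower in tumors. Of the calls, 38.5% were higher in tumors, and 61.1% when arrays were scaled by spike-in controls, which moved the median of all genes to 0.04. By the same threshold 2 of the 5 members that passed the filter, Ly6d and Ly6e, were called higher and 2, Ly6a and Ly6c1, lower. The 3 values of each group did not overlap for all 5, which was so for 51.8% of all genes tested. The rule that chose the family used this contrast, so nothing is read from these counts.

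**Figure D1:**
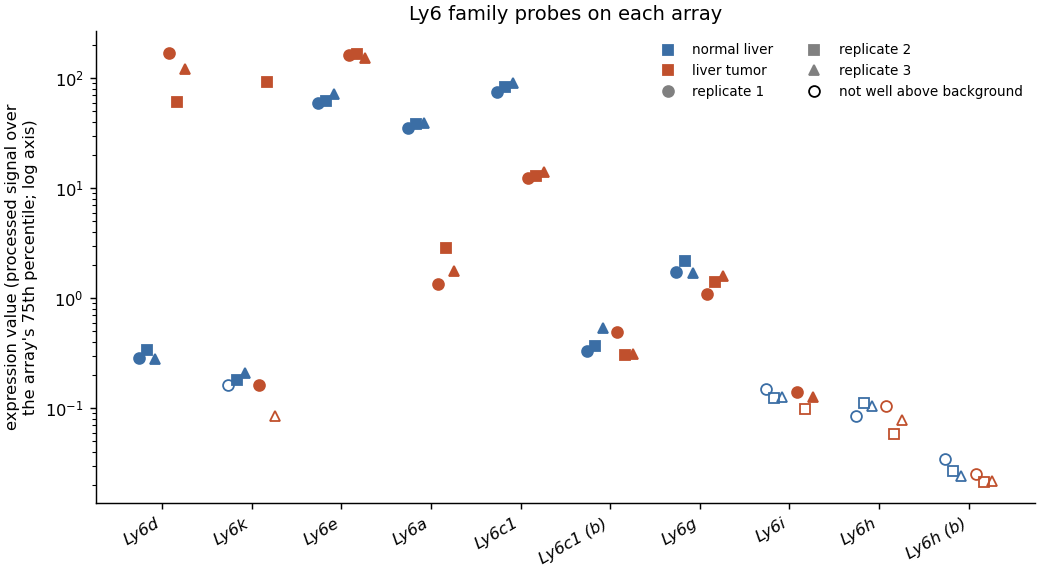
Expression value (log axis) of each Ly6 probe on the 3 normal livers (blue) and 3 liver tumors (red); marker shapes give the replicate, open markers spots not well above background, and (b) the dimmer of a gene's probes. Ly6d lay at 0.281 to 0.338 in normal livers and 60.1 to 170 in tumors, while Ly6k was high on 1 tumor array only, at 93.1.

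Ly6d, the member that was raised most, went from close to the limit of detection in normal liver to a bright signal in each tumor. Its expression values were 0.285, 0.338 and 0.281 in normal livers 1, 2 and 3, and 170, 60.1 and 121 in liver tumors 1, 2 and 3. The lowest tumor was 178-fold above the highest normal liver. The log2 difference was 8.48 (SE 0.36), a 357-fold ratio of geometric means, which ranked 7 from the top among the 18567 genes, between those of Gldn at 8.52 and Cidea at 8.45. The tumors were far less alike than the normal livers, with an SD of 0.77 on the log2 scale among tumors and 0.15 among normal livers, and the highest tumor 2.83-fold above the lowest. That SD among tumors was larger than those of 96.3% of the genes tested. With normexp background correction (offset 50) the difference was 7.19. The methods' t-test on linear values, run here unpaired and with adjustment for multiple testing, did not call Ly6d.

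The genes whose values over the 6 arrays were most like those of Ly6d were sought among the 16513 other genes well above background on all 6. The measure was the root mean square distance of log2 values taken relative to the mean of the normal livers. This distance includes the size of the difference, for which Ly6d was chosen, so only genes with large rises could come close. The closest was Slpi, an inhibitor of leukocyte proteases, at 0.18. Its expression values were 0.701, 1.05 and 0.702 in normal livers and 438, 201 and 363 in tumors, so that the tumors stood in the same order as for Ly6d, with tumor 1 highest and tumor 2 lowest. Spink1, a trypsin inhibitor, followed at 1.01, with 160, 124 and 53.0 in tumors 1, 2 and 3. The lipid desaturase Scd2 (1.30), the cell cycle inhibitor Cdkn2b (1.32) and the mucin-type glycosyltransferase Galnt6 (1.49) came next, with log2 differences of 6.78, 6.72 and 6.44.

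**Figure D2:**
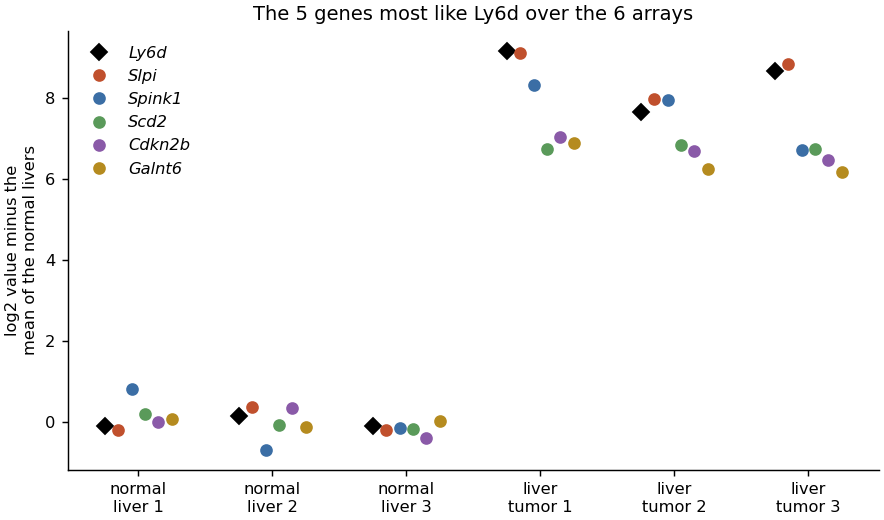
log2 value minus the mean of the normal livers for Ly6d (diamonds) and the 5 genes closest to it, on each of the 6 arrays. Slpi follows Ly6d on all arrays, at a distance of 0.18, and the others stand below it in most tumors.

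Ly6d is also expressed by stratified epithelium and by cells of the B and plasmacytoid dendritic lineages, and the markers of these were read on the same arrays. Of 15 squamous epithelium markers 7 were tested, and 4 were called higher and 1 lower, beside 13.1% and 21.0% of all genes tested. The median difference was 0.79. Krt5, a keratin of basal cells, was at least 4.80-fold higher in tumors, since no normal liver read it well above background. Its tumor values were 0.411, 1.82 and 0.324. Without liver tumor 2 the bound was 2.81-fold. Krt5 passed the filter through the tumors alone, where it was high, which favours a difference and a call, so no p-value is given for it. Its call was lost with normexp, with a filter on all 6 arrays and by the methods' t-test after adjustment. The bound sets the tumor mean of log2 values against the lowest signal well above background on each normal array, or the probe's own where that was higher. The cornified envelope gene Sprr1a rose by 2.68 (limma adjusted p = 0.00362, the value in brackets for each gene below), Trp63, the basal cell factor p63, by 1.39 (0.00528), and Krt13 by 0.79 (0.0371), while Krt10 fell by 0.65 (0.0155). The call of Krt13 was lost without any 1 array but normal liver 1, and that of Krt10 without normal liver 2 or 3. With normexp 2 markers were called higher and 1 lower, and with spike-in scaling 4 and 0. The summed level of the list was 54.1 to 62.6 in normal livers and 70.7 to 74.7 in tumors, of which the Perp probe, which was not called, gave 44.9 to 54.0 and 44.7 to 55.4. Krt14, Krt6a, Krt15, Krt1, Ivl, Krtdap and Dsc3 were well above background on no array.

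Of 8 B cell markers 3 were tested and none was called by limma, which called 34.2% of all genes tested. Cd79a passed an unadjusted p of 0.05 by limma and by the methods' t-test, 1 gene by each. The summed level was 4.52 to 5.08 in normal livers and 4.37 to 4.59 in tumors, and Pax5, Blk and Fcrla were well above background on no array. Of 6 plasmacytoid dendritic cell markers 3 were tested and Klk1 rose by 2.73 (SE 0.18, limma adjusted p = 0.00027), with a summed level of 226 to 255 in normal livers and 241 to 278 in tumors, nearly all of it the Siglech probe at 221 to 249 and 230 to 268, and Spib was well above background on no array. Sums add the values of different probes and show the brightest of them most. The part of any of these cells in the Ly6d signal was not tested.

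Ly6k, a GPI-anchored protein of male germ cells that is also made by some carcinomas, was bright in 1 tumor and at the edge of detection on the other 5 arrays. Its expression values were 0.162, 0.182 and 0.210 in normal livers 1 to 3, and 0.164, 93.1 and 0.0854 in tumors 1 to 3. Only liver tumor 2 stood apart, and the spots of normal liver 1 and tumor 3 were not well above background. It did not pass the filter, and no difference between the groups is read from it. The value of tumor 2 was 444-fold above the highest of the other arrays, 8.79 on the log2 scale. Among the 19580 genes well above background on that array it was the largest such excess, and 2 genes there, Ly6k included, had one over 5. On tumor 3, 1 gene did so, with an excess of 5.37, and on each of the other 4 arrays none, where the largest excess was 2.98 to 4.99. These excesses were sought after the values had been seen.

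The spot of Ly6k in tumor 2 was compared with the others, since it is the only reading of the gene. Its mean signal was 1.03 times its median signal over 41 pixels, and the SD of its pixels was 0.132 of the mean, against 0.115 to 0.130 for the Ly6d spots of the tumors. It had a local background of 22, and no member spot carried an outlier or saturation flag. The brightest of the 24 spots around it had an expression value of 185 on that array, and 145 to 483 on the other 5, where Ly6k stayed low. The excess was 9.08 with spike-in scaling and 7.05 with normexp. Ly6d, separated from Ly6k by 2 genes in the RefSeq order, had its lowest tumor value in this tumor. Of the squamous markers called higher, Krt5 had its highest value there, at 1.82 against 0.411 and 0.324 in tumors 1 and 3, and so had Sprr1a. Trp63 was highest in tumor 1, and Krt13 was highest in tumor 3 and lowest in tumor 2.

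**Figure D3:**
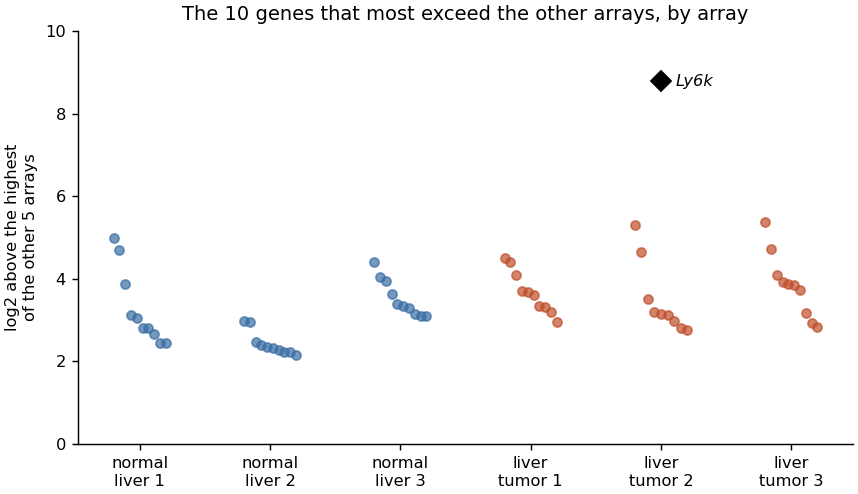
For each array, the 10 genes whose log2 value most exceeds the highest of the other 5 arrays (vertical axis), among genes well above background on that array. Ly6k on liver tumor 2 stands at 8.79, and no other gene on any array is above 5.37.

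Ly6e, a member found in many tissues and induced by retinoic acid and interferon, was higher in all tumors by a modest and even step. Its expression values were 59.0, 62.1 and 72.3 in normal livers 1 to 3, and 163, 164 and 152 in tumors 1 to 3. The groups were apart, with the lowest tumor 2.10-fold above the highest normal liver. The log2 difference was 1.31 (SE 0.12), a 2.49-fold ratio. The SD among tumors was 0.06, and 9.95% of the genes tested had a smaller one, the opposite of Ly6d. Quantile normalization gave 1.51 and spike-in scaling 1.48.

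Ly6a, or Sca-1, was the member that was lowered most. Its expression values were 35.3, 38.0 and 39.5 in normal livers 1 to 3, and 1.35, 2.89 and 1.77 in tumors 1 to 3. The lowest normal liver was 12.2-fold above the highest tumor. The log2 difference was -4.30 (SE 0.27), a level 19.7-fold lower in tumors, which ranked 23 from the bottom of all genes tested. As with Ly6d, tumors differed among themselves more than normal livers did, with an SD of 0.55 against 0.08. The tumor with the lowest Ly6d, tumor 2, had the highest Ly6a, and tumor 1, with the highest Ly6d, had the lowest Ly6a.

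Ly6c1, found on endothelial cells and part of the monocytes, was lower in tumors by its brighter probe and not by its dimmer one. The brighter probe read 75.3, 83.6 and 90.2 in normal livers 1 to 3, and 12.4, 12.8 and 14.1 in tumors 1 to 3. Its log2 difference was -2.66 (SE 0.12), a level 6.33-fold lower, with an SD of only 0.09 among tumors. The dimmer probe, printed above, read 0.331, 0.367 and 0.539 in normal livers and 0.489, 0.304 and 0.312 in tumors, so that the groups overlapped, with a difference of -0.17 (SE 0.26). It is listed for other transcript variants of the gene than the brighter one, and levels of different probes are not comparable. Averaging both probes gave -1.41. Ly6c2, a close neighbour in the cluster that is known for its great similarity to Ly6c1, has no probe, and its part in the Ly6c1 signal was not tested.

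Ly6a and Ly6c1 share the endothelium and blood cells as known sites, and the markers of these moved in both directions. All 12 endothelial markers were tested, with 2 called higher and 3 called lower, beside 13.1% and 21.0% of all genes tested. The median difference was -0.01. With spike-in scaling 3 were higher, Lyve1 now among them, and 0 lower. Cd34 rose by 2.46 (SE 0.27, limma adjusted p = 0.00176) and Emcn by 0.70 (0.00996), while Stab2, a receptor of sinusoidal endothelium, fell by 0.78 (0.0154), Tie1 by 0.68 (0.00806) and Clec4g by 0.49 (0.0496). The call of Clec4g was lost without any 1 array but normal liver 1. The summed level of the list was 114 to 130 in normal livers and 93.6 to 102 in tumors, and no marker was dim on all arrays.

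Of 9 monocyte markers 7 were tested, with 3 called higher and 2 called lower, beside 13.1% and 21.0% of all genes tested. The median difference was 0.64. Cx3cr1, well above background in 2 of 3 normal livers, rose by 1.53. Chil3 rose by 1.38 (limma adjusted p = 0.00215) and Ms4a4c by 0.82 (0.0118), and the integrin Itgam fell by 1.65 (0.00547) and Fcgr1 by 1.05 (0.0297). Cx3cr1 passed the filter through the tumors alone, where it was high, so no p-value is given for it. Its call was lost with no filter on dim probes, with a filter on all 6 arrays and without normal liver 2 or any 1 tumor. The call of Fcgr1 was lost without normal liver 1 or any 1 tumor. The summed level was 392 to 449 in normal livers and 622 to 864 in tumors, nearly all of it the Ms4a4c probe at 373 to 432 and 610 to 854; the other markers together gave no more than 20.0 on any array. F13a1 was well above background on no array. Of 11 T and NK cell markers 5 were tested and Cd4 rose by 1.59 (0.0032), with a summed level of 70.2 to 74.1 in normal livers and 144 to 248 in tumors. Most of that was the Cd4 probe itself, at 58.8 to 60.9 and 134 to 235, and the other markers together gave 11.4 to 13.2 and 10.5 to 12.9. Cd8a, Cd8b1 and Klrb1c were well above background on no array. The part of these cells in the Ly6a and Ly6c1 differences was not tested.

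Ly6g, the neutrophil antigen, was slightly lower in tumors and did not reach the threshold. Its expression values were 1.74, 2.16 and 1.71 in normal livers 1 to 3, and 1.10, 1.41 and 1.60 in tumors 1 to 3. The highest tumor lay just under the lowest normal liver. The log2 difference was -0.45 (SE 0.18), and it was -0.30 without liver tumor 1. The Gm10238 probe, which shares the 28 bases with it, read 4.35, 4.99 and 4.77 in normal livers and 0.912, 1.03 and 1.26 in tumors, a difference of -2.15 (SE 0.15). The order of the tumors was the same on both probes, with tumor 1 lowest and tumor 3 highest. How far a transcript of 1 gene bound the probe of the other was not tested.

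Of 12 neutrophil markers 5 were tested, and limma and the methods' t-test called 0 of them, also at an unadjusted p of 0.05. Over all genes tested limma called 34.2%. The median difference was 0.03, and the summed level was 149 to 170 in normal livers and 132 to 184 in tumors, most of it the Csf3r probe at 141 to 159 and 124 to 173. S100a8 and S100a9, the calprotectin subunits that fill the neutrophil cytoplasm, were highest in tumor 1, at 3.37 and 12.9, where Ly6g was lowest. In the other tumors S100a8 was at 0.912 and 0.732 and S100a9 at 4.51 and 2.81. The granule protease gene Mmp8 was well above background on no array.

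Ly6i and Ly6h gave no level to compare. Ly6i read 0.148, 0.123 and 0.126 in normal livers, none well above background, and 0.142, 0.0985 and 0.125 in tumors, of which tumors 1 and 3 were just above it. The 2 probes of Ly6h, a gene of the nervous system, read 0.0583 to 0.111 and 0.0216 to 0.0343 and were well above background on no array. Kupffer cells, the macrophages of the liver, were read by 8 markers. All 8 were tested and 5 were called lower, beside 21.0% of all genes tested. The median difference was -1.18. Clec4f fell by 1.84 (SE 0.35, limma adjusted p = 0.0102), Timd4 by 1.65 (0.00886), Vsig4 by 1.27 (0.00368) and Cd5l by 1.08 (0.0441), whose call held only when normal liver 2 or liver tumor 1 was the array left out. The summed level was 103 to 179 in normal livers and 52.9 to 87.7 in tumors. The part of Kupffer cells in any member's value was not tested.

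Along the chromosome, members that were higher and members that were lower lay in 1 cluster. In the RefSeq gene order, on a build other than that of the array and used for order only, the stretch from Ly6d to Ly6h holds 37 genes, of which 9 are the members. Of the other 28 genes 9 had a probe and 3 were tested. Gm10238 fell (limma adjusted p = 0.000369), and so did 9030619P08Rik, a transcribed pseudogene, by 1.51 (SE 0.20, adjusted p = 0.00333), from 6.88 ± 1.04 (SD, n = 3) to 2.43 ± 0.55. Gml2 differed by -0.19 (adjusted p = 0.656). Gml, Cyp11b1, Cyp11b2, Ly6a2 and Ly6f were well above background on no array. Going from Ly6d to Ly6h, the brightly read members came as Ly6d and Ly6e, both higher, then Ly6a and Ly6c1, both lower.

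**Figure D4:**
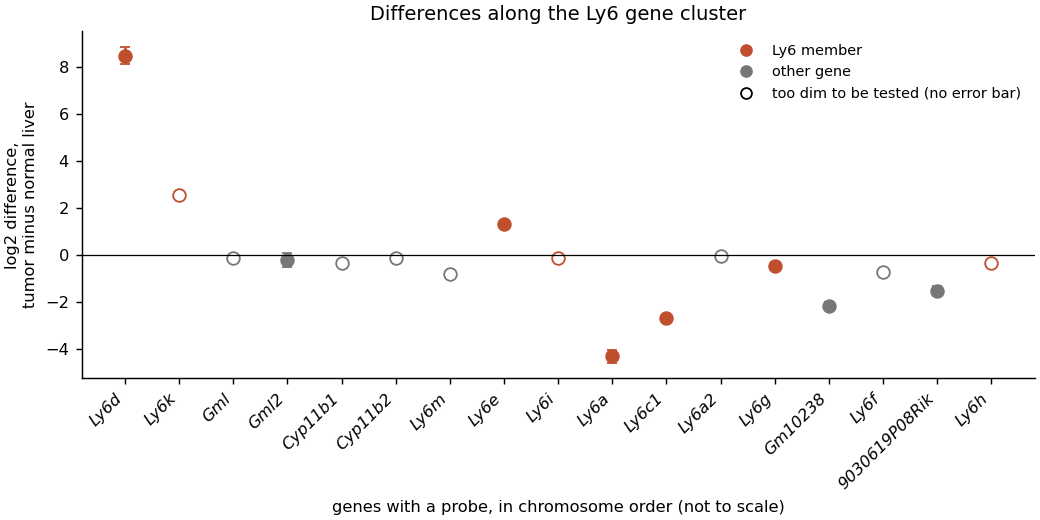
log2 difference, tumor minus normal liver, for the genes of the Ly6 stretch of chromosome 15 that have a probe, in gene order and not to scale; bars are SE, and open circles are genes too dim to be tested. Ly6d (8.48) and Ly6e (1.31) stand above 0, Ly6a (-4.30), Ly6c1 (-2.66), Gm10238 (-2.15) and 9030619P08Rik (-1.51) below, and the open circle of Ly6k rests on liver tumor 2 alone.

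The wider Ly6/uPAR superfamily was read through 38 relatives, of which 34 had a probe and 11 were tested. Of these, 4 were called higher and 1 lower, beside 13.1% and 21.0% of all genes tested. By sign alone 7 were higher and 4 lower. The median difference was 0.29 against -0.13 over all genes, and 0.12 against -0.09 with normexp. Plaur, the receptor of urokinase, rose by 1.87 (SE 0.35), from 0.163 ± 0.048 (SD, n = 3, with 2 of the 3 well above background) to 0.607 ± 0.251. It passed the filter through the tumors alone, where it was high, so no p-value is given for it. Its call was lost with a filter on all 6 arrays and by the methods' t-test after adjustment. Lypd5 rose by 1.35 (limma adjusted p = 0.002), Slurp2, a secreted member that lies close to Ly6d, by 0.77 (0.00893), and Gpihbp1, which carries lipoprotein lipase to the capillary surface, by 0.51 (0.0295). Cd59a, an inhibitor of complement lysis, fell by 0.72 (0.0195). Lynx1, between Slurp2 and Ly6d, differed by 0.66 (0.166), with overlapping groups. Without normal liver 1 or normal liver 2 the calls fell from 5 to 3, and Cd59a and Gpihbp1 were the ones lost; Gpihbp1 was lost without any 1 array but liver tumor 2, and Cd59a also without that one.

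Since most members need a GPI anchor, 32 genes of anchor synthesis, attachment and release were listed, of which 28 were tested. Of these, 2 were called higher and 6 lower, beside 13.1% and 21.0% of all genes tested. The median difference was -0.13, the same as over all genes. Pign, which adds ethanolamine phosphate to the anchor, fell by 1.46 (SE 0.26, limma adjusted p = 0.00806), and Gpld1, the circulating phospholipase that cuts anchors, fell by 1.23 (0.000788). Dpm1, the catalytic subunit of dolichol-phosphate-mannose synthase, fell by 0.97 (0.00457), and the mannosyltransferase Pigv by 0.52 (0.0237). The anchor-remodelling gene Mppe1 rose by 0.87 (0.00312), and Pigp by 0.45 (0.0395). The calls fell from 8 to 5 without normal liver 2, normal liver 3 or liver tumor 1, and to 4 with spike-in scaling, which lost Dpm3, Pigp, Pigq and Pigv. The call of Pigp was lost without any 1 array but liver tumor 2, and that of Pigv without normal liver 2 or 3 or tumor 3.

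Interferon is a known inducer of Ly6a and Ly6e, which went opposite ways here. Of 26 interferon response genes 24 were tested. Of these, 2 were called higher and 1 lower, beside 13.1% and 21.0% of all genes tested. The median difference was -0.20. The chemokine Cxcl10 rose by 1.69 (SE 0.29, limma adjusted p = 0.00737) and Ifit2 by 0.86 (0.0456), and Bst2, or tetherin, fell by 0.67 (0.0442). The summed level was 150 to 259 in normal livers and 148 to 170 in tumors. Calls went from 3 to 1 without liver tumor 1 or liver tumor 2 and to 5 without normal liver 3. The calls of Ifit2 and Bst2 were lost with any 1 of the 6 arrays left out, and that of Cxcl10 with none. With spike-in scaling 4 genes were called higher and 0 lower, and with quantile normalization 3 and 0. The part of interferon in any member's value was not tested.

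The tissue itself was read as liver on all arrays. All 11 hepatocyte markers with a probe were tested, with Apoa1 higher by 0.90 (limma adjusted p = 0.00565), Cps1 lower by 1.48 (0.00453) and a summed level of 9321 to 10195 in normal livers and 9038 to 9552 in tumors. Of 8 cholangiocyte markers 6 were tested, the median difference was -0.42, and the summed level was 2.80 to 3.61 in normal livers and 2.32 to 2.63 in tumors.

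**Figure D5:**
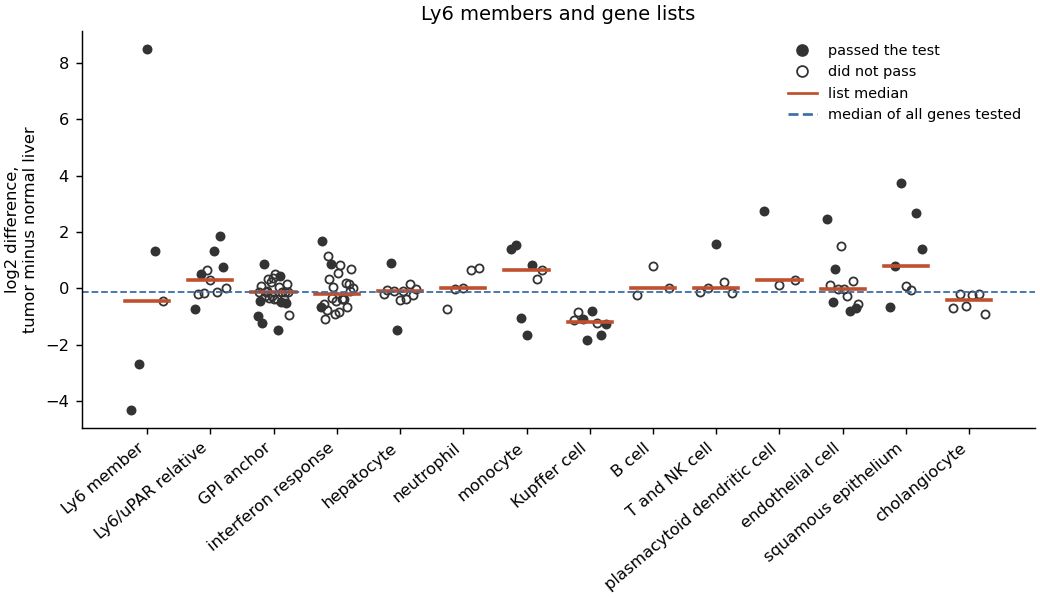
log2 difference, tumor minus normal liver, of each tested gene in the Ly6 family and the 13 lists beside it; filled points passed the limma threshold, red lines are list medians, and the dashed line is the median of all genes tested (-0.13). The Ly6 members run from -4.30 to 8.48, and of the lists only the Kupffer cell markers have a median under -1; Krt5, at 3.72, stands on normal values not well above background.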

How the data were processed

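Per array, spot intensity was deposited as background-subtracted processed signal from Agilent Feature Extraction, version 12.0.3.1 in the submitters' processing notes and 10.7.3.1 in the file headers. The authors also deposited a table of each spot's ratio to its array's 75th percentile, which equals the ratio computed here for 99.9% of values (tolerance 0.0051, or 0.001 of the value). The log2 of this ratio was analysed without the 3671 control spots and outlier-flagged spots. limma 3.58.1 (R 4.3.3; lmFit, eBayes) was fitted over the 24901 probes that passed the filter, and a Benjamini-Hochberg adjusted p under 0.05 was a call; it was checked on simulated data. A gene was read by its brightest probe that passed. What is called the methods' t-test was run here unpaired on linear values, with the Benjamini-Hochberg adjustment except where an unadjusted p is stated. The published methods name a paired Student's t-test for gene expression at p under 0.05, with no such adjustment. Probes took current symbols through RefSeq (GRCm38.p6) by accession (27235), symbol (3581) or synonym (565), and 24300 kept the array's name. Groups come from sample titles, and nothing says that samples came from separate mice. The p-values set the difference between groups, that of the slides included, against the spread between these samples only, estimated from few arrays. The members and the 14 gene lists were chosen with earlier results of these data known. Named were all members, of each other list up to 4 called genes per direction with the largest change, markers never well above background, called genes of the cluster, and the 5 genes most like Ly6d. Dpm3, Pigq, Lynx1, S100a8, S100a9, Cd79a, Perp, Siglech, Lyve1, Csf3r, Gldn and Cidea were named after their values were seen.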

Additional observations from a re-analysis of the deposited data

How the results depend on the processing

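The 5 tested members kept the sign of their difference under every correction, scaling, probe average and left-out array tried, and of 46 called genes of the lists and the cluster, members included, 0 changed sign under the other corrections and scalings. Ly6d was 7.19 with normexp; Ly6c1 was -2.55 with normexp, -2.49 with quantile normalization, -2.50 with spike-in scaling and -1.41 as the mean of its probes; Ly6e was 1.51 with quantile normalization and 1.48 with spike-in scaling. The member calls stayed at 4 except with the methods' t-test after adjustment (3, without Ly6d). As the members were chosen on this contrast, nothing is read from that. Relatives called went from 5 to 3 with spike-in scaling and with no filter on dim probes, and to 2 by the t-test, and lay at 3 to 4 with 1 array left out. GPI anchor calls went from 8 to 4 with spike-in scaling and no filter, and lay at 5 to 7. Interferon response calls went from 3 to 1 with no filter, to 5 with an eBayes trend and to 0 by the t-test (3 at an unadjusted p of 0.05), and lay at 1 to 5. Marker calls went from 24 to 13 by the t-test. Over all genes, 6346 calls became 3902 with spike-in scaling, 3501 with no filter, 4135 by the t-test and 3872 without normal liver 2. The list medians of the GPI anchor, hepatocyte and endothelial lists went from -0.13, -0.11 and -0.01 to 0.04, 0.06 and 0.16 with spike-in scaling. The causes were not tested.

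A fit with the replicate block called 5417 genes, and 4 members, 4 relatives, 6 GPI anchor, 4 interferon response and 23 marker genes. Deviations of same-numbered arrays correlated at 0.05 to 0.13, and 4 of 6 arrays correlated best with their own number. With so few arrays this cannot tell whether same-numbered samples came from the same mouse. Values near the background, such as those of Ly6i, Ly6h and Ly6k on 5 arrays, limit what can be compared.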
